A study of Mus musculus with 32 samples.

Results

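The genes described here are 10 markers of early mouse development and pluripotency: Dppa2, Dppa3, Dppa4 and Dppa5a, whose symbols stand for developmental pluripotency associated, and Tdh, Zfp42, Fbxo15, Tcl1, Utf1 and L1td1. They were chosen by name, 10 of the 31053 gene identifiers in the count tables, and all 10 were among the 15280 genes tested. RNA came from 32 cultures of the mouse embryonic stem cell (ESC) line C1, which lacks endogenous β-catenin and carries a doxycycline (dox) driven fusion of a destabilizing domain, mCherry and a stabilized β-catenin mutant, held stable by trimethoprim (TMP). C1 is a single line made by lentiviral infection of β-catenin-/- ESCs, with the transactivator under the EF1a promoter, so all groups share the knockout and both transgenes. Every group had 4 libraries that the labels call biological replicates, and the p-values below measure the spread between these cultures of one line.

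At day 0 the cells were in 2i/L, which contains an inhibitor of GSK3 and one of MEK with the cytokine LIF. C1 had 10 μM TMP alone for 48 h and was sorted as live cells, whereas C1M and C1H had 100 ng/mL dox with the same TMP and were the middle and the high mCherry fractions of the induced cells. Cells from these sorts were then kept for 4 days in NDiff227 medium without 2i/L. C1T came from C1 and had TMP alone. C1MV and C1HV came from C1M and C1H and had only the DMSO vehicle, so induction was withdrawn and TMP was absent too. C1MDT and C1HDT came from the same fractions and had dox and TMP throughout. On the medium before sorting, the labels name serum with LIF and the study's methods 2i/L.

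These 10 genes are commonly read as signs of the pluripotent state. Dppa2 and Dppa4 are SAP-domain chromatin proteins that bind each other and keep a set of promoters open. Dppa3, also called Stella, is a maternal protein that counters DNA methylation through UHRF1, and Dppa5a is a KH-domain RNA-binding protein. Tdh is the mitochondrial enzyme that oxidizes threonine, the first step of its breakdown to glycine and acetyl-CoA in mouse ESCs. Zfp42, better known as Rex1, is a zinc finger protein used as a reporter of the naive state, Tcl1 is a co-activator of the kinase AKT, and Fbxo15 is an F-box protein whose locus served as an early reporter in reprogramming. L1td1 is an RNA-binding protein derived from a LINE-1 element, and Utf1 is a chromatin protein that limits Polycomb loading at poised promoters. Naive ESCs released from 2i/L pass through a formative, epiblast-like state, in which naive genes go down and epiblast genes come up.

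Promoter sequence of 3 of the genes is shown, those with the largest decreases and the largest increase over the 4 days in C1T among the 4 members that RefSeq's promoter table (GRCm38.p6) held, Zfp42, Tcl1, L1td1 and Utf1. Each runs 5′ to 3′ on the gene's own strand and ends before the first start annotated for the gene. Capitals mark matches on either strand to the letters ATGCAAAT (octamer, bound by OCT4), CTTTGAT or CTTTGAA (TCF/LEF), TCAAGGTCA (ESRRB), CATTGTT (SOX), GGGTGTG (KLF) and GGGCGG (GC box). The Zfp42 stretch is chr8:43307010-43307259 on the minus strand, that of Tcl1 is chr12:105222794-105222987 on the minus strand and that of Utf1 is chr7:139943606-139943788 on the plus strand.
Zfp42: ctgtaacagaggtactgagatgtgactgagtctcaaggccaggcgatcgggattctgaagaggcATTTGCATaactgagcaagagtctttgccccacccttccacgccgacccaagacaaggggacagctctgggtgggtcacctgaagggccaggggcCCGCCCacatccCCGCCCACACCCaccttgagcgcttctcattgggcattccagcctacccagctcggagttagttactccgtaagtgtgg
Tcl1: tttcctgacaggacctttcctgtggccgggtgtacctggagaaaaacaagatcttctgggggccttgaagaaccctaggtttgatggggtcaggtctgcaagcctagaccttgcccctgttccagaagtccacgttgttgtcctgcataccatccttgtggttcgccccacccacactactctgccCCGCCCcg
Utf1: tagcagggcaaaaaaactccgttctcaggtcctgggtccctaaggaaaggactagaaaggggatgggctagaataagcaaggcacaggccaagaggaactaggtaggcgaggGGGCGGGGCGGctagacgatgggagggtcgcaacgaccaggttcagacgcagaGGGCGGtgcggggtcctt

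The Zfp42 stretch held 4 matches: 1 octamer, 1 KLF match and 2 GC boxes, all in the reverse orientation, and the second GC box and the KLF match overlap by 1 base. Utf1 held 3 GC boxes, the first pair of them overlapping, and Tcl1 held 1. The stretch of L1td1 (230 bases), which is not printed, held 0 matches. Among 32851 RefSeq promoter windows of 250 bases, 1.60% held the octamer, 6.93% the KLF letters and 32.7% a GC box. The Tcl1 and Utf1 stretches are shorter than these windows (194 and 183 bases), so the shares are not matched to them in length. The TCF/LEF, ESRRB and SOX letters, found in 3.21% (CTTTGAT), 4.46% (CTTTGAA), 0.387% and 3.29% of the windows, were not in the 3 printed stretches. The matches are descriptions of the letters only.

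Reads on genes ran from 1366951 to 3648787 per library, with a median of 2402468, and values are given as CPM (the count relative to the library's reads on genes) scaled with edgeR's TMM factors. A number of 3 counts, taken as the floor, came to between 0.838 and 2.14 CPM. The libraries read the 3′ ends of transcripts (QuantSeq), so CPM are not compared between genes. Ctnnb1, the gene of β-catenin, had 7.81 ± 2.63 CPM (SD, n = 4) in C1, 12.3 ± 3.84 in C1M and 41.2 ± 5.70 in C1H. At day 4 it had 9.74 ± 2.47 in C1T, against 9.16 ± 2.57 in C1MV and 6.21 ± 1.84 in C1HV, with 29.2 ± 4.29 in C1MDT and 30.8 ± 3.75 in C1HDT. C1H was above C1 (C1H vs C1 log2 fold change 2.37, SE 0.21, edgeR FDR 6.48e-20), and C1M did not pass the test (log2 fold change 0.61, SE 0.25, edgeR FDR 0.0553). The knockout took out the coding sequence, and these reads come from 3′ ends, so they check the induction and not the knockout.

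The ESC markers Pou5f1, Sox2, Nanog and Esrrb were above the floor in every group. Their summed CPM ran from 1978 to 2069 in C1, 1804 to 1959 in C1M and 1715 to 1752 in C1H, and at day 4 from 625 to 718 in C1T, against 732 to 984 in C1MV and 742 to 939 in C1HV, with 411 to 477 in C1MDT and 378 to 500.4 in C1HDT. The 4 markers did not all follow the sum. Against C1, 1 (Nanog, log2 fold change 0.20) rose and 2 fell in C1M (0 and 2 by DESeq2), with 0 and 2 in C1H. Among all genes 14.3% and 13.8% rose there and 12.0% and 12.1% fell. Against C1T, 2 rose and 1 fell in C1MV, 3 and 1 in C1HV and 0 and 3 in C1MDT and in C1HDT. There 13.7% to 17.4% of all genes rose and 14.3% to 16.5% fell. The endoderm markers Gata4, Gata6, Sox17, Dab2, Sparc and Ttr were higher in all 4 induced groups than in C1T at day 4, apart from Ttr. Their summed CPM was 369.98 to 569 in C1T, where Sox17 was at the floor, Sparc averaged 218 CPM and Ttr 211 CPM, against 2374 to 2923 in C1MV and 2546 to 2738 in C1HV, with 3761 to 4222 in C1MDT and 3624 to 4271 in C1HDT. Against C1T, 5 of the 6 rose in each induced group (13.7% to 17.4% of all genes), and Ttr fell in C1MDT and C1HDT. At day 0 the sum was 1372 to 1640.2 in C1, 945 to 1051 in C1M and 874 to 942 in C1H, and the members did not move together. Sparc and Ttr fell in both against C1 (Sparc log2 fold change -0.64 and -0.82), Gata6 and Dab2 rose in C1M (1.45 and 1.27), and the median of the 6 was 0.76 in C1M and 0.78 in C1H. Sparc averaged 2263 CPM in C1MV and 3241 CPM in C1HDT. The fibroblast markers Col1a1, Col1a2, Thy1 and Pdgfra summed to 6.72 to 8.63 CPM in C1, 13.6 to 20.5 in C1M and 13.5 to 18.3 in C1H, and at day 4 to 2.40 to 9.53 in C1T, against 23.8 to 29.2 in C1MV and 26.1 to 31 in C1HV, with 24.1 to 35.8 in C1MDT and 21.02 to 33.1 in C1HDT. Pdgfra averaged 0.760 CPM in C1T and from 16.1 (C1MV) to 22 CPM (C1MDT) in the induced groups, and Thy1 averaged 0.721 CPM in C1, 9.86 in C1M and 10.8 in C1H. The sum thus rested mainly on Pdgfra in the induced groups at day 4, and on Thy1 in C1M and C1H. In those day 4 groups 5 of the 6 endoderm markers were higher too. Whether the cells with Pdgfra RNA were fibroblasts was not tested. The part of the cells that carry these markers in the results below was not tested, and in bulk RNA fewer cells of a type and less RNA per cell cannot be told apart. Neural markers (Sox1, Pax6, Tubb3, Nes) summed to 172 to 206 CPM in C1T and to 212 to 252, 205 to 231, 269 to 278 and 232 to 278 CPM in C1MV, C1HV, C1MDT and C1HDT. These 4 genes went different ways against C1T. In C1MV and in C1HV 1 was higher and 1 lower, with 2 and 1 in C1MDT and 3 and 1 in C1HDT (2 and 1 by DESeq2). In these comparisons 13.7% to 17.4% of all genes were higher and 14.3% to 16.5% lower.

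**Figure D1:**
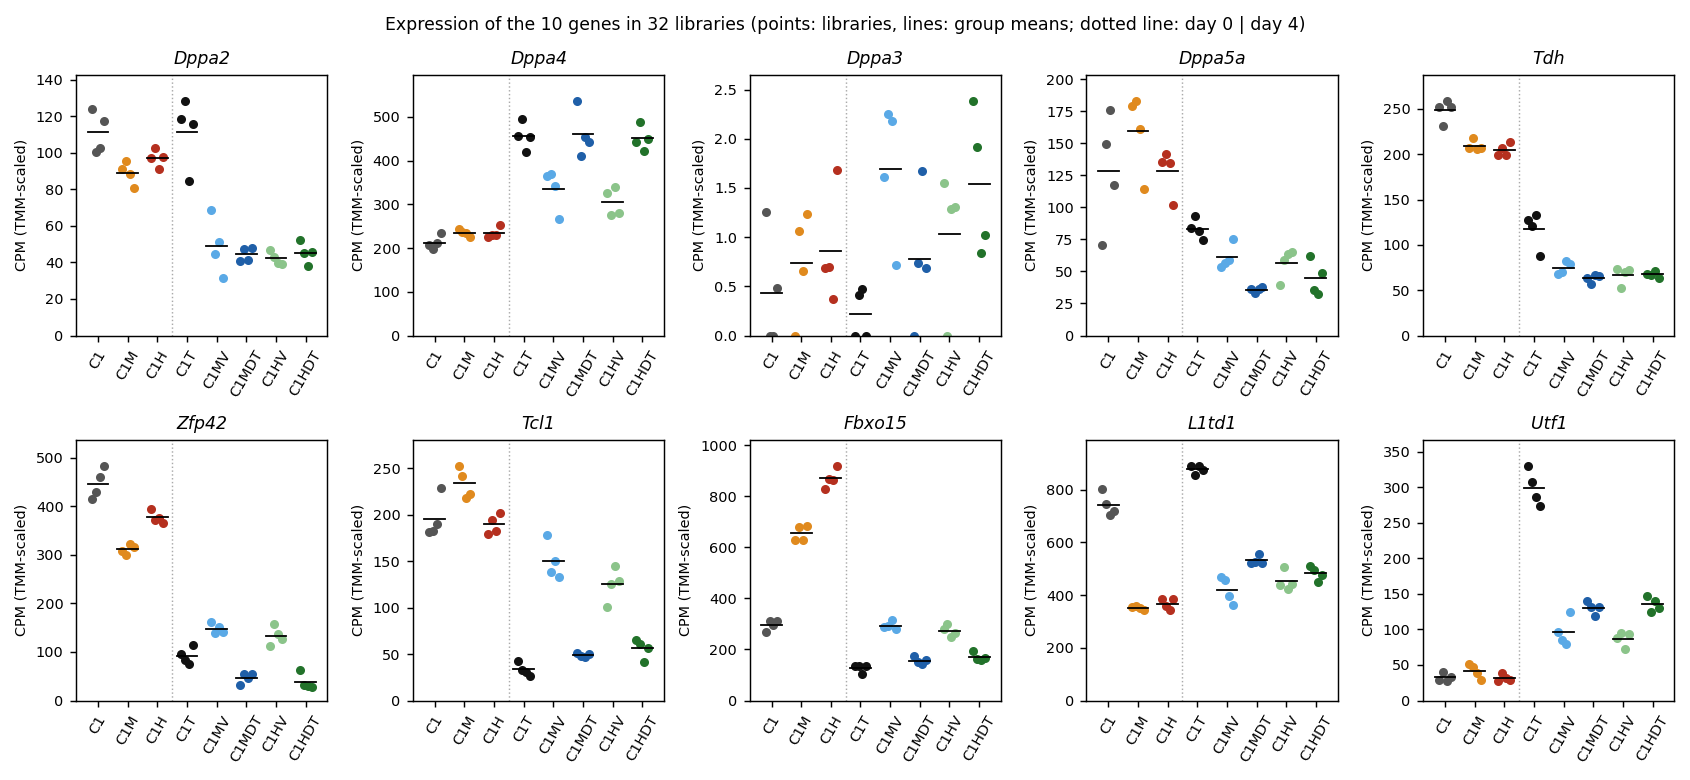
CPM, TMM-scaled, of the 10 genes in each of the 32 libraries (points) with the group mean (line), day 0 groups left of the dotted line and day 4 groups right of it. Each panel has its own axis from 0. Utf1 is highest in C1T (274 to 329.7), Fbxo15 in C1H (831 to 919), and the 16 libraries of the induced groups at day 4 lie below every C1T library for Dppa2.

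Dppa2 and Dppa4, whose proteins act as a pair, lie next to each other on chromosome 16 in the same orientation, Dppa4 at chr16:48283733-48294237 and Dppa2 at chr16:48303908-48319723 (GRCm38), with 9670 bases between them. Their RNA levels parted at day 4. Dppa2 did not change detectably in C1T and was lower in all 4 induced groups, while Dppa4 was higher at day 4 than at day 0 in all 5 groups.

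Dppa2 had 124, 100.2, 103 and 117 CPM in the C1 libraries, 91.3, 95.4, 88.3 and 80.9 CPM in C1M and 97.1, 103, 91.2 and 98 CPM in C1H. In C1T it had 119, 128, 84.4 and 116 CPM. The C1T libraries spanned the range of C1, and the difference was 0.00 on the log2 scale with a 95% interval of -0.21 to 0.22 (edgeR FDR 1). The day 4 values were 68.9, 44.6, 51.2 and 31.4 CPM in C1MV and 47, 43.2, 39.6 and 39 CPM in C1HV. With induction kept on they were 41, 47.2, 41.6 and 47.8 CPM in C1MDT and 52, 44.9, 38.1 and 46 CPM in C1HDT. No library of these 4 groups reached the lowest C1T library. Against C1T the log2 fold change was -1.15 in C1MV (SE 0.12, edgeR FDR 3.87e-15) and -1.40 in C1HV, with -1.33 in C1MDT and -1.30 in C1HDT, all past the threshold. The change from day 0 to day 4 itself differed from that of C1T in each induced group, by -0.82 in C1MV and -1.20 in C1HV, with -1.001 in C1MDT and -1.10 in C1HDT (interaction term, edgeR FDR at most 2.27e-05). Constant and withdrawn induction were not told apart, with a difference of -0.18 for C1MDT vs C1MV (95% interval -0.43 to 0.07) and 0.11 for C1HDT vs C1HV (95% interval -0.16 to 0.38). At day 0 Dppa2 was lower in C1M than in C1 (log2 fold change -0.33, SE 0.11, edgeR FDR 0.0168), a call lost when C1 replicate 1 (FDR 0.0673), C1 replicate 4 (0.0551) or C1M replicate 4 (0.0548) was left out. The call was also lost when libraries were scaled by size only (FDR 0.0619).

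Dppa4 had 207, 197, 212 and 233 CPM in C1 and 456, 496, 419.5 and 455 CPM in C1T, with no overlap (log2 fold change 1.10, SE 0.08, edgeR FDR 8.14e-27). C1MDT reached 536, 411, 453 and 442 CPM and C1HDT 443, 489, 423 and 449.8 CPM, which overlapped with C1T, and the differences from C1T were 0.01 and -0.02 (95% intervals -0.14 to 0.16 and -0.17 to 0.13). With induction withdrawn Dppa4 stood between day 0 and C1T, at 365, 368, 342 and 267 CPM in C1MV and 327, 276, 339.9 and 279.8 CPM in C1HV. Both were below C1T, C1MV with log2 fold change -0.43, SE 0.08, edgeR FDR 9.49e-07 and C1HV with log2 fold change -0.58, SE 0.08, edgeR FDR 2.93e-10. Both were also below their constantly induced partner (C1MDT vs C1MV 0.44, C1HDT vs C1HV 0.56, edgeR FDR 2.13e-06 and 3.37e-09). The 3 day 0 groups were not told apart in the main fit, with means between 212 and 235 CPM. When libraries were scaled by size only, C1M and C1H passed against C1 (0.20 and 0.22, edgeR FDR 0.0441 and 0.0314).

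Next to the pair, Morc1, 111513 bases past Dppa2, fell in C1T against C1 (log2 fold change -1.09, edgeR FDR 1.01e-07), and Nectin3, the nearest tested gene on the other side at 1785207 bases, rose (log2 fold change 1.11, edgeR FDR 3.96e-14). Of 7 genes of the 2-cell programme known as targets of Dppa2 and Dppa4, 5 were tested, and 4 of these rose in C1M against C1 (3 by DESeq2), 4 in C1H and 3 in C1T, with none lower, where 14.3%, 13.8% and 24.4% of all genes rose. Zscan4c, a gene of the 2-cell programme in a multigene family, averaged 0.401 CPM in C1, where no library had more than 3 counts, 1.82 in C1M and 6.56 in C1H. At day 4 its mean was 1.85 CPM in C1T, against 5.38 in C1MV and 3.28 in C1HV, with 1.35 in C1MDT and 3.22 in C1HDT. Against C1T, 2 of the 5 rose in C1MV and 2 in C1HV (15.3% and 13.7% of all genes; 2 and 1 of the 5 by DESeq2). In C1MDT and C1HDT edgeR called 0 of the 5 against C1T, with 1 at an unadjusted p under 0.05 in each and 0 by DESeq2. Over the 4 days 3 of the 5 rose in C1MV, edgeR called 0 in C1MDT (0 at an unadjusted p under 0.05 and 0 by DESeq2), and 3 fell in C1HV and 3 in C1HDT (1 and 2 by DESeq2), where 22.0% of all genes rose and 25.1% and 29.4% fell. These are low-count genes with near-identical copies. Only uniquely mapped reads were counted, so reads that aligned equally to more than 1 copy were left out.

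Dppa3, at chr6:122626410-122630272 between Gdf3 and Nanog, was near the floor throughout. Its raw counts were 3, 0, 0 and 1 in C1, 0, 3, 2 and 3 in C1M and 2, 2, 1 and 4 in C1H. At day 4 they were 0, 1, 1 and 0 in C1T, 4, 6, 6 and 1 in C1MV, 0, 2, 6 and 2 in C1MDT, 3, 0, 3 and 2 in C1HV and 7, 4, 2 and 3 in C1HDT. C1, C1M, C1T and C1HV had no library above 3 counts, and no library of any group had more than 7. C1MV and C1HDT passed the threshold against C1T (edgeR FDR 0.0252 and 0.0412), but both calls rest on these few reads and both missed it in DESeq2 (adjusted p 0.0535 and 0.0714). Of its neighbours, Nanog fell in C1T against C1 (log2 fold change -2.69, SE 0.09, edgeR FDR 9.88e-56) and Gdf3 did not pass (log2 fold change -0.17, SE 0.10, edgeR FDR 0.164). Of 6 genes around Dppa3 in DNA methylation (Uhrf1, Dnmt1, Dnmt3l, Tet1, Tet2, Tet3), 4 fell and 1 rose in C1T against C1, where 24.9% of all genes fell and 24.4% rose. Uhrf1, the methylation cofactor that Dppa3 protein binds, had a log2 fold change of -0.95 there and -0.98 in C1M against C1 (edgeR FDR 1.76e-09 and 2.52e-09). Dnmt3l, which stimulates the de novo methyltransferases, was the one that rose, by 4.40 in C1T.

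Dppa5a, at chr9:78367052-78368177, fell in all 5 groups over the 4 days, and its replicates spread more than those of most other members. It had 70.9, 149, 176 and 117 CPM in C1, 179, 183, 161 and 114 CPM in C1M and 136, 142, 135 and 102 CPM in C1H, which overlapped. At day 4 it had 84, 92.9, 81.5 and 74.4 CPM in C1T, 53.6, 56.5, 59.2 and 74.9 CPM in C1MV and 39.3, 58.5, 63.2 and 65.1 CPM in C1HV. The constantly induced groups were lowest, with 36.3, 32.8, 36.3 and 37.9 CPM in C1MDT and 61.9, 35.8, 32.7 and 49 CPM in C1HDT, all below every C1T library. Against their own day 0 cells the log2 fold change was -1.41 in C1MV and -1.19 in C1HV, with -2.15 in C1MDT and -1.49 in C1HDT (edgeR FDR at most 8.56e-05). In C1T it was -0.60 (edgeR FDR 0.0235), with C1 replicate 1 (70.9 CPM) below every C1T library, and the call was lost in the fit of these groups alone (FDR 0.13) and without C1 replicate 2 (0.0825), C1 replicate 3 (0.152), C1T replicate 3 (0.0536) or C1T replicate 4 (0.0613). Against C1T the constantly induced groups passed the test, and C1MV and C1HV did not (C1MDT log2 fold change -1.22, SE 0.24, edgeR FDR 0.000271, C1HDT -0.87, edgeR FDR 0.0051), although C1MV and C1HV passed in fits of only the groups compared (edgeR FDR 0.000952 and 0.00014). Constant against withdrawn induction gave -0.74 (SE 0.25, edgeR FDR 0.0541) in the middle fraction, without overlap of libraries, which passed in DESeq2 (adjusted p 0.0117), with a CPM of at least 1 in all 32 libraries (edgeR FDR 0.0403) and in the fit of these groups alone (edgeR FDR 2.5e-05). In the high fraction it gave -0.30 (95% interval -0.83 to 0.22). Of the windows of 75 bases over its last 500 transcribed bases, 22.8% also occur in other genes, among them the copies Dppa5b and Dppa5c. Reads from such stretches could have been left out as not uniquely mapped. Next to it Ooep, another KH-domain gene expressed in oocytes, fell in C1T against C1 (log2 fold change -1.37, SE 0.21, edgeR FDR 9.04e-09) and was already lower in C1M (-1.32) and C1H (-1.62) than in C1 (edgeR FDR 2.79e-08 and 4.85e-11). Dppa1 and Khdc3 had at most 8 and 14 counts in any library.

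Tdh, at chr14:63492347-63509092, was highest in C1 and stepped down at each stage. C1 had 252, 232, 259 and 252 CPM, C1M 207, 218, 206 and 207 CPM and C1H 199, 207, 199 and 214 CPM, so that every induced day 0 library lay below every C1 library. C1T had 127, 121, 133 and 88.1 CPM. The induced groups at day 4 were lower again, at 67.7, 70, 81.8 and 78.5 CPM in C1MV and 73.9, 52.3, 70.1 and 72.2 CPM in C1HV, with C1MDT between 57.1 and 66.5 CPM and C1HDT between 63.3 and 70.8 CPM. The change in C1T was -1.07 (SE 0.09, edgeR FDR 3.48e-22), and that of the 4 induced groups differed from it by -0.42 to -0.65 on the log2 scale (interaction, edgeR FDR at most 0.00888). At day 0 the differences from C1 were -0.25 in C1M and -0.28 in C1H (edgeR FDR 0.0168 and 0.00619), and both missed the threshold when libraries were scaled by size only (FDR 0.0824 and 0.0544). Among 7 tested genes of threonine and glycine metabolism, 6 rose and 1 fell in C1T against C1, where 24.4% of all genes rose and 24.9% fell. Gldc, the decarboxylase of the glycine cleavage system, rose by 2.80 in C1T, 1.20 in C1M and 1.43 in C1H against C1 (edgeR FDR 4.6e-15, 0.00725 and 0.000777). Amt, the aminomethyltransferase of that system, was the one that fell (log2 fold change -0.42, SE 0.15, edgeR FDR 0.0136). Gm17232 overlaps Tdh on the opposite strand, the strand option of the counting is not given in the sources used here, and 7.75% of the 3′ windows of Tdh also occur in Gm13929.

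Zfp42, at chr8:43295063-43306980, whose promoter stretch with the octamer is printed above, fell in all 5 groups over the 4 days. It stayed highest where induction had been withdrawn and came down lowest where it was kept on. C1 had 416, 429, 459 and 482 CPM, C1M 308, 299, 322 and 316 CPM and C1H 395, 372, 375 and 366 CPM, without overlap. C1T came down to 95.5, 84.1, 74.8 and 114 CPM. Cells from which induction had been withdrawn kept more, 162, 139, 151 and 141 CPM in C1MV and 113, 157, 137 and 126 CPM in C1HV, whereas constantly induced cells had 31.1, 54.6, 46.1 and 54.4 CPM in C1MDT and 62.9, 32, 30.6 and 28.6 CPM in C1HDT. Every C1MV library was above and every C1MDT and C1HDT library below all C1T libraries, and C1HV overlapped with C1T (lowest C1HV library 113, highest C1T library 114). Against C1T the log2 fold change was 0.70 in C1MV and 0.55 in C1HV (edgeR FDR 0.000989 and 0.0118), but -0.94 in C1MDT and -1.22 in C1HDT (edgeR FDR 0.000127 and 5.43e-06). Over the 4 days the log2 fold change was -2.29 in C1T, against -1.07 in C1MV and -1.50 in C1HV, with -2.71 in C1MDT and -3.27 in C1HDT. As a difference from C1T this passed for C1MV (1.22), C1HV (0.79) and C1HDT (-0.97) and not for C1MDT (-0.42, edgeR FDR 0.183), which passed without a filter on low counts (edgeR FDR 0.0481) and in a fit of only the groups compared (edgeR FDR 0.0172). Constant against withdrawn induction gave -1.64 (SE 0.17) in the middle and -1.77 (SE 0.18) in the high fraction (edgeR FDR 3.66e-08 and 2.51e-08). At day 0 it was lower in C1M than in C1 (log2 fold change -0.52, SE 0.13, edgeR FDR 0.0037), and C1H, although below every C1 library, did not pass in the fit of all groups (log2 fold change -0.24, SE 0.13, edgeR FDR 0.177) and passed in the fit of C1 and C1H alone (FDR 0.00171).

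Tcl1, at chr12:105216750-105222793, fell in all 5 groups over the 4 days and, like Zfp42, stayed highest at day 4 where induction had been withdrawn. It had 181, 182, 189.98 and 228 CPM in C1, 252, 242, 218 and 222 CPM in C1M and 179, 195, 183 and 202 CPM in C1H. C1T fell to 42.7, 33.3, 31 and 26.8 CPM, the largest decrease among the 10 genes in that comparison (log2 fold change -2.53, SE 0.12, edgeR FDR 1.99e-42). C1MV kept 178, 138, 150.5 and 133 CPM and C1HV 101, 126, 145 and 128 CPM, and every library of these groups was above the highest of C1T. C1MDT had 50.8, 48.3, 46.4 and 50.6 CPM and C1HDT 65.6, 61.1, 41.5 and 56.2 CPM. C1MDT stayed above every C1T library and C1HDT overlapped with it. The log2 fold change against C1T was 2.16 in C1MV and 1.89 in C1HV, and 0.53 and 0.74 in C1MDT and C1HDT (edgeR FDR 1.52e-34, 1.67e-28, 0.000637 and 1.1e-06). Over the 4 days it changed by -2.53 in C1T and -2.26 in C1MDT, a difference that did not pass (0.27, 95% interval -0.04 to 0.59, edgeR FDR 0.221). Constant against withdrawn induction gave -1.63 and -1.15 (edgeR FDR 5.59e-27 and 1.92e-16). At day 0 C1M was above C1 by 0.26 (edgeR FDR 0.0232), a call lost without any one of C1 replicates 1, 2 and 3 (FDR 0.153, 0.105 and 0.0798) or C1M replicates 1 and 2 (0.114 each). Akt1 and Akt2, kinases that Tcl1 protein binds, gave log2 fold changes of -0.26 and -0.11 in C1T against C1 and did not pass (edgeR FDR 0.135 and 0.659).

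Fbxo15, at chr18:84934782-84981473, had the largest difference among the 10 genes between induced and uninduced cells in pluripotent culture. C1 had 270.3, 311, 296 and 312 CPM, C1M 631, 678, 629.5 and 683 CPM and C1H 831, 869.6, 865 and 919 CPM, and the 3 groups did not overlap. C1M was 2.21-fold and C1H 2.93-fold above C1 (log2 fold change 1.14, SE 0.07, edgeR FDR 1.17e-29 and log2 fold change 1.55, SE 0.07, edgeR FDR 8.16e-43), and C1H was above C1M by 0.41 (edgeR FDR 2.64e-05). At day 4 C1T had 135, 136, 105 and 136 CPM, C1MV 287, 293, 316 and 279 CPM and C1HV 279, 301, 249.96 and 263 CPM. C1MDT had 173, 153, 141 and 158 CPM and C1HDT 193, 164, 157 and 165 CPM. All induced libraries were above all C1T libraries, those without ongoing induction by 1.20 and 1.09 and those with it by 0.28 and 0.41 on the log2 scale (edgeR FDR 2.4e-28, 1.76e-24, 0.00498 and 1.82e-05). The value for C1MDT was 0.20 (FDR 0.0799) without C1T replicate 3, the lowest of its group. From their higher start C1MDT and C1HDT fell further over the 4 days than C1T did, with differences of -0.86 and -1.14 (interaction, edgeR FDR 1.36e-10 and 1.1e-16). C1HV differed from C1T by -0.46 (edgeR FDR 0.000688), and C1MV was not told apart from it, with a difference of 0.06 (95% interval -0.15 to 0.28). Core subunits of the SCF ligase that F-box proteins join, Skp1a, Cul1 and Rbx1, all rose in C1T against C1, by 0.44, 0.43 and 0.62 (edgeR FDR at most 1.68e-05), as did 24.4% of all genes. At day 0 they went the other way against C1, with 1 of the 3 lower in C1M and 3 in C1H. Among all genes 12.0% and 12.1% were lower there. Timm21 overlaps Fbxo15 on the opposite strand.

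L1td1, at chr4:98726734-98738480, moved opposite to Fbxo15 at day 0. C1 had 800.4, 746, 703 and 719.6 CPM, C1M 353, 359, 353 and 345 CPM and C1H 384, 357, 343 and 386 CPM, so that both fractions were below every C1 library (log2 fold changes -1.07 and -1.01, edgeR FDR 1.92e-29 and 1.24e-27). C1T had 889, 854, 888 and 874 CPM, above all C1 libraries (log2 fold change 0.24, SE 0.07, edgeR FDR 0.00174). The induced cells stayed below C1T at day 4, with 468, 458, 397 and 361 CPM in C1MV and 439, 505, 425 and 440.5 CPM in C1HV. C1MDT had 521, 527, 556 and 523 CPM and C1HDT 512, 493, 448 and 477 CPM. Against C1T the log2 fold changes were -1.05 in C1MV and -0.95 in C1HV, with -0.72 in C1MDT and -0.86 in C1HDT (edgeR FDR at most 7.31e-18). The rise over the 4 days was 0.26, 0.30, 0.59 and 0.39 in C1MV, C1HV, C1MDT and C1HDT, and of these C1MDT differed from C1T (interaction 0.36, edgeR FDR 0.00283). Of the nearest tested genes on either side, Kank4, 16417 bases away, fell in C1M (log2 fold change -1.01, edgeR FDR 5.81e-11), C1H (log2 fold change -1.19, edgeR FDR 4.97e-14) and C1T (log2 fold change -4.29, edgeR FDR 1.61e-44) against C1, and Patj, 7130 bases away, rose in C1H (log2 fold change 0.78, edgeR FDR 0.0249), and gave log2 fold change 0.43, edgeR FDR 0.292 in C1M and log2 fold change -0.06, edgeR FDR 0.9 in C1T.

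Utf1, at chr7:139943789-139945112, whose promoter stretch with 3 GC boxes is printed above, had the largest increase of the 10 genes. It was low in pluripotent culture, with 29, 39.6, 28 and 33.6 CPM in C1, 50.9, 46.8, 38.8 and 28.9 CPM in C1M and 27.3, 38.7, 32.2 and 29 CPM in C1H. These 3 groups overlapped and no pair of them passed the test in the main fit. C1M vs C1 (0.36, edgeR FDR 0.0527) passed with the replicate block (FDR 0.0447), library size only (0.0285) and no filter (0.0329). It also passed without C1 replicate 2 (0.0252) or C1M replicate 4 (0.00716). C1H vs C1M (edgeR FDR 0.153) passed without C1M replicate 4 (0.0235). In C1T it reached 329.7, 307, 287 and 274 CPM, 9.26-fold above C1 (log2 fold change 3.21, SE 0.12, edgeR FDR 4.23e-46). The induced groups rose less, to 96, 85, 78.9 and 124 CPM in C1MV and 87.8, 94.9, 73.1 and 93 CPM in C1HV. With induction kept on it was 139.6, 132, 118 and 132 CPM in C1MDT and 147, 125, 140.3 and 130.1 CPM in C1HDT. All 16 of these libraries lay below all C1T libraries and above all day 0 libraries. Against C1T the log2 fold change was -1.67 in C1MV and -1.79 in C1HV, with -1.21 in C1MDT and -1.14 in C1HDT (edgeR FDR at most 4.33e-19). Constant induction gave more than withdrawn induction, by 0.47 and 0.65 (edgeR FDR 0.000554 and 1.38e-06). Of the Polycomb genes listed with it, Eed and Suz12 fell in C1T against C1 (-0.84 and -0.98, edgeR FDR 3.93e-12 and 2.41e-26) and Ezh2, the methyltransferase, gave 0.00 (edgeR FDR 1).

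**Figure D2:**
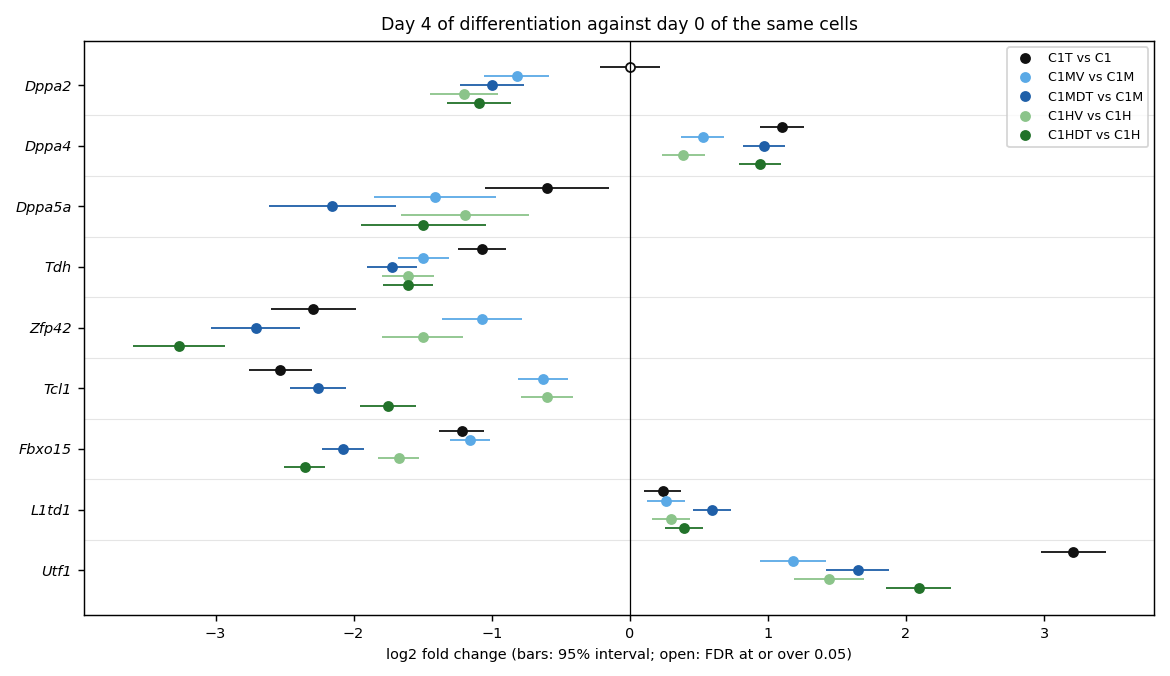
Log2 fold change from day 0 to day 4 (horizontal axis) of 9 of the 10 genes in C1T (against C1), C1MV and C1MDT (against C1M) and C1HV and C1HDT (against C1H). Points are edgeR estimates, bars 95% intervals and open points FDR at or over 0.05. Dppa2 in C1T is the open point at 0.00, and Utf1, Dppa4 and L1td1 lie right of 0 in all 5 groups. Dppa3, near the floor, is left out.

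The 10 genes were counted across the comparisons against the share of all 15280 genes tested, at an FDR of 0.05 in edgeR's quasi-likelihood fit of all groups. In C1T against C1, Dppa4, L1td1 and Utf1 rose and Dppa5a, Tdh, Zfp42, Tcl1 and Fbxo15 fell, 3 higher and 5 lower of 10, where 24.4% of all genes were higher and 24.9% lower (49.3% in either direction). In C1MV against C1M, in C1MDT against C1M, in C1HV against C1H and in C1HDT against C1H the same 3 rose, and Dppa2 joined the 5 that fell. Each of these gave 3 higher and 6 lower of 10. Among all genes, 22.0% were higher and 23.9% lower (45.9% together) in C1MV, 24.5% were higher and 27.9% lower (52.4% together) in C1MDT, 22.0% were higher and 25.1% lower (47.0% together) in C1HV and 26.3% were higher and 29.4% lower (55.7% together) in C1HDT. The median of the 10 was -0.72 in C1T and ran from -0.73 in C1MV to -1.36 in C1MDT, beside medians over all genes between -0.06 and 0.01. C1MV and C1MDT share the C1M libraries, and C1HV and C1HDT those of C1H.

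At day 0, Tcl1 and Fbxo15 were higher and Dppa2, Tdh, Zfp42 and L1td1 lower in C1M than in C1, 2 and 4 of 10, against 14.3% and 12.0% of all genes (26.3% together). In C1H, Fbxo15 was higher and Tdh and L1td1 were lower than in C1, 1 and 2 of 10 against 13.8% and 12.1% (25.9% together), a share near that of all genes. C1M and C1H share the C1 control. Between C1H and C1M, where 1.77% of all genes changed (0.713% higher and 1.06% lower), Fbxo15 was higher and Tcl1 lower, and the call of Tcl1 (edgeR FDR 0.049) was lost under RLE factors, library size only, a CPM filter over all 32 libraries, the replicate block and DESeq2 and when any one of the 8 libraries other than C1M replicate 4 was left out.

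**Figure D3:**
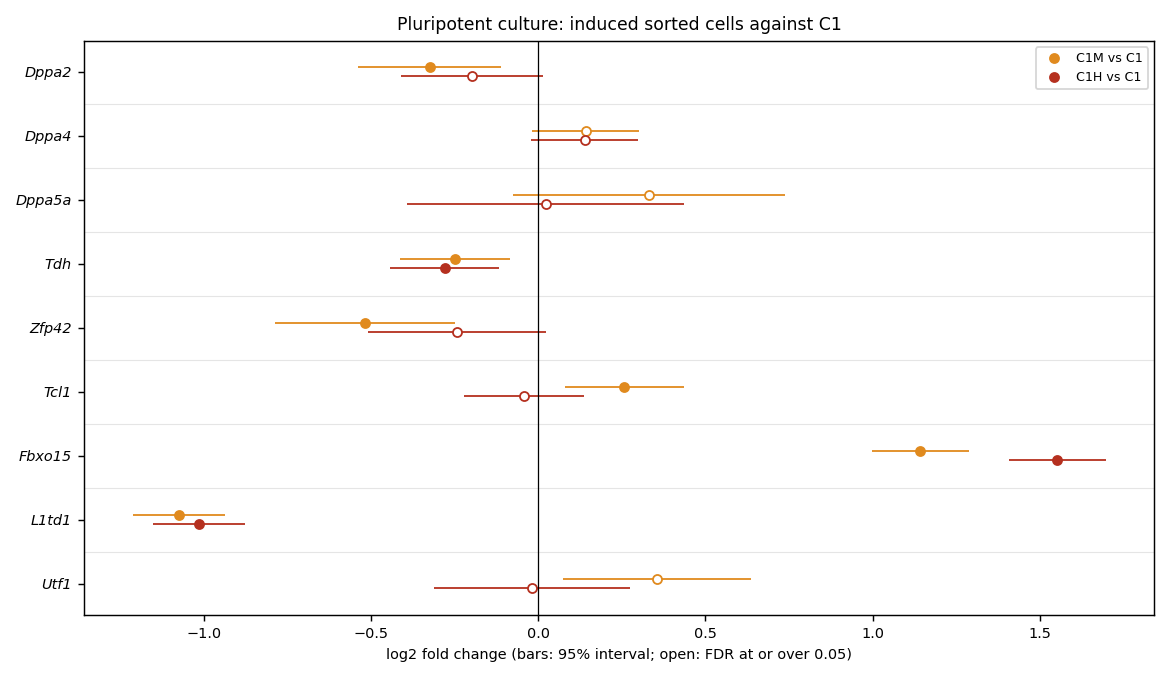
Log2 fold change (horizontal axis) of 9 of the 10 genes in the middle (C1M) and high (C1H) mCherry fractions against C1 in pluripotent culture. Points are edgeR estimates, bars 95% intervals and open points FDR at or over 0.05. Fbxo15 lies farthest right (1.14 and 1.55) and L1td1 farthest left (-1.07 and -1.01) in both fractions.

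At day 4, Zfp42, Tcl1, Fbxo15 and Dppa3 were higher in C1MV than in C1T and Dppa2, Dppa4, Tdh, L1td1 and Utf1 lower, 4 and 5 of 10 against 15.3% and 14.9% of all genes (30.2% together). In C1HV the same genes apart from Dppa3 were called in the same directions, 3 and 5 of 10 against 13.7% and 14.3% (28% together). In C1MDT, Tcl1 and Fbxo15 were higher and Dppa2, Dppa5a, Tdh, Zfp42, L1td1 and Utf1 lower, 2 and 6 of 10 against 16.9% and 16.5% (33.4% together). In C1HDT Dppa3 was added to those higher, 3 and 6 of 10 against 17.4% and 16.1% (33.5% together). All 4 comparisons share the C1T libraries. As differences between the responses, 2 of the 10 were higher and 4 lower in C1MV (11.0% and 11.6% of all genes, 22.5% together), 2 and 5 in C1HV (10.7% and 11.2%, 21.9% together), 1 and 5 in C1MDT (11.8% and 12.6%, 24.4% together) and 1 and 6 in C1HDT (12.7% and 12.6%, 25.2% together).

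**Figure D4:**
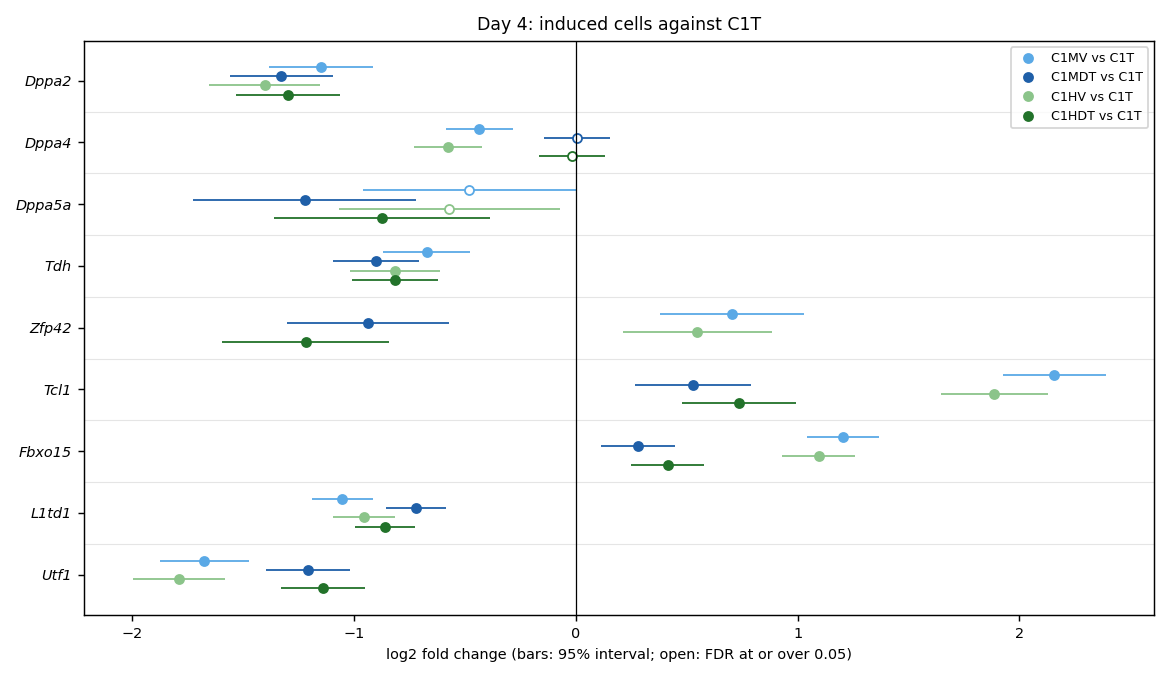
Log2 fold change (horizontal axis) of 9 of the 10 genes in the 4 induced groups against C1T at day 4. Points are edgeR estimates, bars 95% intervals and open points FDR at or over 0.05. Zfp42 lies right of 0 in C1MV (0.70) and C1HV (0.55) and left of 0 in C1MDT (-0.94) and C1HDT (-1.22), and Dppa2, Tdh, L1td1 and Utf1 lie left of 0 in all 4.

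Constant induction was compared with withdrawn induction in each fraction separately, and these comparisons share no library. In the middle fraction Dppa4, L1td1 and Utf1 were higher and Zfp42, Tcl1 and Fbxo15 lower in C1MDT than in C1MV, 3 and 3 of 10 against 6.64% and 5.95% of all genes (12.6% together). In the high fraction Dppa4 and Utf1 were higher and the same 3 lower in C1HDT than in C1HV, 2 and 3 of 10 against 9.10% and 6.88% (16.0% together), and L1td1 gave 0.10 (95% interval -0.04 to 0.23). Whether a gene's difference itself differed between the fractions was not tested. The 10 genes did not tell apart groups that differ only in the fraction at day 4. For C1HV vs C1MV edgeR called 0 of the 10 genes (0.00654% of all genes), with 1 at an unadjusted p under 0.05 and 0 by DESeq2, and for C1HDT vs C1MDT 0 of 10 (0%), with 1 at an unadjusted p under 0.05 and 0 by DESeq2. These intervals were not all narrow. Apart from Dppa3, the lowest and highest bounds were those of Dppa5a for C1HV vs C1MV (-0.60 to 0.42), and for C1HDT vs C1MDT the lowest bound was that of Zfp42 (-0.68 to 0.12) and the highest that of Dppa5a (-0.18 to 0.88).

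**Figure D5:**
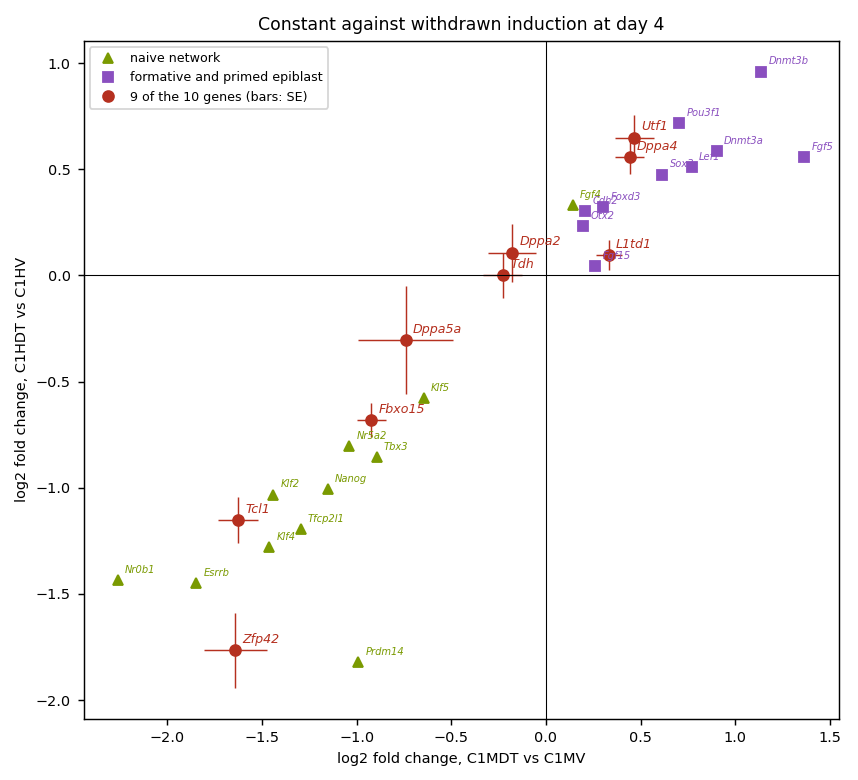
Log2 fold change of constant against withdrawn induction at day 4 in the middle fraction (C1MDT vs C1MV, horizontal axis) and in the high fraction (C1HDT vs C1HV, vertical axis) for 9 of the 10 genes (circles with SE), the naive network genes (triangles) and the formative and primed epiblast genes (squares). Zfp42 (-1.64 and -1.77), Tcl1 (-1.63 and -1.15) and Fbxo15 (-0.92 and -0.68) lie among the naive genes, and Utf1 (0.47 and 0.65) and Dppa4 (0.44 and 0.56) in the upper right with the epiblast genes.

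The genes of the surrounding network are given for comparison. Of 11 naive network genes, 10 fell and 0 rose in C1T against C1 (median -2.62, all genes 0.01), where 24.9% of all genes fell and 24.4% rose, from Klf4 (-5.00) to Nr5a2 (-1.23), both transcription factors that hold the naive state. Against C1T, 7 of the 11 rose and 2 fell in C1MV and likewise in C1HV, while 1 rose and 6 fell in C1MDT and 1 rose and 5 fell in C1HDT. In these 4 comparisons 13.7% to 17.4% of all genes rose and 14.3% to 16.5% fell. With constant against withdrawn induction 9 fell and 0 rose in the middle fraction, and 10 fell and 1, Fgf4, rose in the high fraction (medians -1.15 and -1.03, all genes -0.02 and 0.00), where 5.95% and 6.88% of all genes fell and 6.64% and 9.10% rose. Zfp42 had the sign of the list's median in each of these 7 comparisons. They share libraries, so the matches are not independent, and the same count was not made for all genes. Of 10 formative and primed epiblast genes, 9 rose and 1, Foxd3 (-0.89), fell in C1T against C1 (median 4.17), with the largest value for Lef1 (6.75), a nuclear partner of β-catenin. Against C1T 8 fell in C1MV and 7 in C1HV, with 4 in C1MDT and 5 in C1HDT, and 0 rose. Constant against withdrawn induction gave 6 higher in the middle and 5 in the high fraction, and 0 lower. Of 8 general pluripotency genes 4 rose and 2 fell in C1T against C1 (median 0.10), from the RNA-binding protein Lin28a (5.22) to the Nodal co-receptor Tdgf1 (-1.15). At day 0, 4 of these 8 fell in C1M and 5 in C1H against C1, with 0 higher, and of the naive network genes 3 rose and 5 fell in C1M and 1 rose and 4 fell in C1H, beside 14.3% and 13.8% of all genes higher and 12.0% and 12.1% lower.

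Likeness of pattern was described as Pearson's r of log2 CPM over the 32 libraries against 9307 genes whose mean log2 CPM was 3 or more. Libraries of one group share their treatment, so r follows the differences between groups, and no p is given. Closest to Zfp42 were Esrrb (r = 0.983), an orphan nuclear receptor of the naive network, and Cobl (r = 0.980). Closest to Tcl1 were Spp1 (r = 0.959) and Klf5 (r = 0.957), to Fbxo15 S100a6 (r = 0.963) and Glrx (r = 0.953), to Tdh mt-Nd1 (r = 0.971) and Bcat1 (r = 0.970), and to Dppa5a Ass1 (r = 0.917) and Tdgf1 (r = 0.917). Utf1 was most like Dnmt3a (r = 0.977), a de novo DNA methyltransferase, and Zfp428 (r = 0.973). Dppa4 was most like Tsn (r = 0.963) and Hes6 (r = 0.961), Dppa2 like Ints6 (r = 0.940) and Ddc (r = 0.937) and L1td1 like Pcyt1b (r = 0.906). Dppa3 had no gene above 0.699 (Cox7a2l). Among the 10 genes themselves, Dppa4 and Zfp42 had the most negative r (-0.920, and -0.213 after the group means were removed).

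Over all 28 pairs of groups, Tcl1 differed in 25, Zfp42, Fbxo15 and L1td1 in 24 each, Utf1 in 23, Dppa4 and Tdh in 21 each, Dppa2 in 18, Dppa5a in 17 and Dppa3 in 2. The same count was not made for all genes, so whether these counts are unusual cannot be said. In the pairs compared above, from 0% (C1HDT vs C1MDT) to 55.7% (C1HDT vs C1H) of all genes were called. In the order of group means, Fbxo15 ran C1H, C1M, C1, C1MV, C1HV, C1HDT, C1MDT and C1T, and of these neighbours C1 and C1MV, C1MV and C1HV, and C1HDT and C1MDT did not differ past the threshold. Tcl1 ran C1M, C1, C1H, C1MV, C1HV, C1HDT, C1MDT and C1T, and C1 and C1H, C1MV and C1HV, and C1HDT and C1MDT were not told apart. Zfp42 ran C1, C1H, C1M, C1MV, C1HV, C1T, C1MDT and C1HDT, with no call between C1 and C1H, C1H and C1M, C1MV and C1HV, or C1MDT and C1HDT. L1td1 ran C1T, C1, C1MDT, C1HDT, C1HV, C1MV, C1H and C1M, and the calls between neighbours were those of C1T and C1, C1 and C1MDT, and C1MV and C1H. Utf1 ran C1T, C1HDT, C1MDT, C1MV, C1HV, C1M, C1 and C1H, with calls between C1T and C1HDT, C1MDT and C1MV, and C1HV and C1M. Dppa2 had 1 step between neighbours, from C1M down to C1MV, and Dppa5a 1 from C1 down to C1T.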

How the data were processed

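Poly(A) RNA of 32 cultures was read from the 3′ end (QuantSeq 3′ FWD). The authors trimmed reads (bbmap 37.31), aligned them to mm10 (STAR 2.6.0a3, as the submitters' notes write it) and deposited raw counts of uniquely mapped reads per Ensembl gene from htseq. The strand setting of the counting is not given in the sources used here. The authors' check for batch effects (ComBat-Seq) treated replicates as batches; here the replicate number entered only an alternative fit, as a block. The deposited counts held 5 summary rows, left out here, among them reads not uniquely aligned (49.4% to 56.4% of reads) and reads on no feature (4.72% to 11.2%). Of 31053 identifiers, 30934 were named from GENCODE vM21 (GRCm38); Gcat, with 2 identifiers, was read from the one that passed the filter.

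Genes with a CPM of at least 1 in at least 4 libraries (15280) were tested with edgeR 4.0.16 (R 4.3.3) by the quasi-likelihood test with TMM factors, in 1 fit of all 8 groups of 4, with Benjamini-Hochberg adjustment over all genes tested and a threshold of 0.05. Intervals cover 95% and are not adjusted. Changes over time were compared by interaction terms. DESeq2 1.42.0, other scaling, filters, samples and a replicate block were alternatives. The script was tested on simulated counts. Members and gene lists were chosen with earlier results of these data known. Listed genes are named by their largest and smallest log2 fold change in C1T against C1 among those past the threshold, or as partners of a member. Morc1, Nectin3, Kank4 and Patj were looked up as neighbours after values had been seen. Samples sharing a replicate number did not deviate together (mean r -0.0016 against 0.00054 for other numbers, 7 of 32 libraries closest to their own number), so the numbers were not used as pairs. Promoter sequence came from RefSeq (GRCm38.p6), and motif letters were searched on both strands. Values of 2 genes that these rules would name are not reported here.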

Additional observations from a re-analysis of the deposited data

Results flagged for a closer look

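Among 80 groups of 4 values (10 genes in 8 groups), 7 held a library that stood apart from the other 3 by Dixon's criterion, which about 5% of groups do by chance. Zfp42 had 62.9 CPM in C1HDT replicate 1, where the others ran from 28.6 to 32 CPM, and Fbxo15 had 105 CPM in C1T replicate 3, where the others had 135 to 136 CPM. Dppa4 had 252 CPM and Dppa5a 102 CPM in C1H replicate 4. Tdh had 218 CPM in C1M replicate 2, L1td1 556 CPM in C1MDT replicate 3, and Dppa3 was at 0 in C1HV replicate 2.

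By the interaction term (edgeR FDR under 0.05), the change from day 0 to day 4 differed from that of C1T in 26 cases. Depending on the induced group, 21.9% to 25.2% of all genes passed the same test. Every such term uses the C1 and C1T libraries, so the cases are not independent. Values are differences on the log2 scale. All 4 induced groups differed for Dppa2 (-0.82 in C1MV, -1.001 in C1MDT, -1.20 in C1HV, -1.10 in C1HDT), for Tdh in the same order (-0.42, -0.65, -0.54 and -0.53) and for Utf1 (-2.03, -1.56, -1.77 and -1.12). Dppa4 differed with induction withdrawn (-0.58 in C1MV and -0.71 in C1HV), and Dppa5a with constant induction (-1.55 in C1MDT and -0.89 in C1HDT). With induction withdrawn Dppa5a gave -0.81 in C1MV and -0.59 in C1HV, which did not pass (edgeR FDR 0.0579 and 0.198). The C1MV value passed without C1 replicate 3 (FDR 0.0199) or C1M replicate 4 (FDR 0.0318). The C1HDT value of Dppa5a missed the threshold (FDR 0.0537 to 0.0939) without any one of C1 replicates 1 and 4, C1H replicates 1, 2 and 3, C1T replicates 1 and 2 or C1HDT replicates 2, 3 and 4, and also with no filter on low counts (FDR 0.0501) and in a fit of only the groups compared (FDR 0.0995). Zfp42 fell less in C1MV (1.22) and C1HV (0.79) and more in C1HDT (-0.97), and Tcl1 fell less in C1MV (1.90), C1HV (1.93) and C1HDT (0.78). Fbxo15 fell more in C1MDT (-0.86), C1HV (-0.46) and C1HDT (-1.14), and L1td1 rose more in C1MDT (0.36). C1T differs from the withdrawn groups in having TMP, and the part of TMP in these differences was not tested.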

How the results depend on the processing

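Of 200 values (10 genes in 20 comparisons), 126 passed the threshold, and none of these changed sign under other scaling, filters, samples, the block or DESeq2, or when 1 library was left out. Of these, 10 lost the call under at least 1 setting. The 2 genes called between C1H and C1M became 1 (Fbxo15) with RLE factors, with library size only, with a CPM of at least 1 in all 32 libraries, with the replicate block and with DESeq2, and ranged from 1 to 3 when 1 library was left out. The replicate block changed 1 other call, that of Utf1 in C1M against C1 (FDR 0.0527, with the block 0.0447), which also passed with library size only (0.0285), with no filter (0.0329) and without C1 replicate 2 (0.0252) or C1M replicate 4 (0.00716). With library size only, Dppa2 and Tdh lost their calls in C1M against C1 (FDR 0.0619 and 0.0824), Tdh also in C1H against C1 (0.0544), and Dppa4 gained calls in C1M and C1H against C1 (0.0441 and 0.0314). Fits of only the groups compared gave Dppa5a calls in C1MV (FDR 0.000952) and C1HV (0.00014) against C1T and in C1MDT against C1MV (2.5e-05), the last also called by DESeq2 (0.0117) and with a CPM of at least 1 in all 32 libraries (0.0403), and ended that in C1T against C1 (0.13) and the difference of its C1HDT response from C1T (0.0351 to 0.0995). They also called Zfp42 in C1H against C1 (0.00171) and C1M (0.000794) and in the response of C1MDT against C1T (0.0172). The cause was not tested. Over all genes, C1H vs C1M had 271 calls, 570 in the fit of those groups and 116 to 234 when 1 library was left out, and C1HV vs C1MV had 1, 3 without a filter, 0 in the fit of those groups, 2 with DESeq2 and 0 to 8 when 1 library was left out. Depth limits Dppa3, at 0 to 7 counts. Reads of Dppa5a, Tdh and Dppa3 can share 3′ sequence with copies, and bulk RNA does not separate cell types.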
